A study of Mus musculus with 36 samples.

Results

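The genes described here were the subunits of the cardiac L-type voltage-gated calcium channel and its inhibitor Rrad: the pore-forming gene Cacna1c, the β subunit genes Cacnb1, Cacnb2, Cacnb3 and Cacnb4, the α2δ subunit genes Cacna2d1, Cacna2d2 and Cacna2d3, the γ subunit gene Cacng6, and Rrad. They were chosen by gene symbol, as subunits or inhibitor of the channel and with earlier results of these data known, and made up 10 of the 55291 genes in the deposited tables. Positions below are those of GENCODE M21 on GRCm38. Of the members, 9 passed the filter on low counts and were tested among 19231 genes, and Cacng6 did not pass.

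RNA-seq was performed on left ventricle and atria of CUG960 mice, a heart model of myotonic dystrophy type 1 (DM1). In every cohort, controls included, the mice were TREDT960I (Hom) and MHCrtTA (Hem), so that doxycycline (dox) switched on RNA with an expanded CUG repeat, set in human DMPK sequence, in cardiomyocytes alone through the α-myosin heavy chain promoter. The –dox cohort never received dox, the +dox cohort was kept on it from postnatal day 1, and the +/–dox cohort was taken off it at 9 weeks of age. Dox was continued in 3 further cohorts, named MBNL1, MBNL2 and MBNL1+MBNL2, whose mice were injected at 9 weeks with AAV9 vectors carrying 3XFLAG-MBNL1, 3XMYC-MBNL2 or both, human proteins driven by the heart-specific TNNT2 promoter. The labels name no vector for the other cohorts, and the study describes its +dox control as given no AAV. The study's control vector cohort, given tdTomato, is not among these libraries. In comparisons with +dox, vector injection and MBNL protein therefore cannot be told apart. Hearts were collected at 21 weeks, with 3 libraries for each of the 12 groups of tissue and cohort and 36 libraries in all. The libraries are labelled as biological replicates. Per the study's sample list both chambers came from the same mice, 18 in all, with 2 libraries per mouse.

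The L-type channel opens when the cardiomyocyte membrane depolarises and lets in the calcium that triggers release from the sarcoplasmic reticulum and then contraction. Cacna1c encodes the pore, β subunits bind the pore from the cytoplasm and promote its traffic and opening, and α2δ subunits are largely extracellular proteins that raise surface expression. Rrad is a small GTPase of the RGK family that binds β subunits and restrains the current, a brake that β-adrenergic signalling releases. In DM1, CUG repeat RNA sequesters MBNL splicing regulators, which is why the study added MBNL1 and MBNL2 back.

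The sequences just upstream of annotated starts are shown for the 4 members whose level differed between the chambers in –dox mice, so that the windows of genes higher in atria stand beside those of genes higher in ventricle. Each run is the 250 bases before a RefSeq start in GRCm38.p6, the assembly also known as mm10, read 5′ to 3′ on the strand of the gene, with E-boxes (CANNTG, on either strand) in capitals. Both a distal start of Cacna1c, at chr6:119196410-119196659 on the minus strand, and a more proximal start of the same gene, at chr6:119108496-119108745 on the minus strand, are given, because the gene-level values do not tell starts apart. A further Cacna1c start lies downstream of both, with its window at chr6:118757975-118758224, and is not shown. The windows of Cacna2d1 (chr5:15934441-15934690, plus strand), Cacna2d2 (chr9:107399630-107399879, plus strand) and Cacna2d3 (chr14:29721865-29722114, minus strand) follow.
Cacna1c distal: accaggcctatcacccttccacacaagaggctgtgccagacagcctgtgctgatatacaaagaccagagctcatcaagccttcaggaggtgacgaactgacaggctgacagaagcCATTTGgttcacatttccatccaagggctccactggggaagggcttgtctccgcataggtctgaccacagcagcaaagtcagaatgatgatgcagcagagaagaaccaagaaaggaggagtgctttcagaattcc
Cacna1c proximal: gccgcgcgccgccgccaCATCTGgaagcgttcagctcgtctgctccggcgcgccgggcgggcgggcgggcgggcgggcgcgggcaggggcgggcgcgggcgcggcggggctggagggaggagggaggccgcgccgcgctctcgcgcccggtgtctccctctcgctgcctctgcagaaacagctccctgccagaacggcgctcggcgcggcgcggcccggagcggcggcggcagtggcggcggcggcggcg
Cacna2d1: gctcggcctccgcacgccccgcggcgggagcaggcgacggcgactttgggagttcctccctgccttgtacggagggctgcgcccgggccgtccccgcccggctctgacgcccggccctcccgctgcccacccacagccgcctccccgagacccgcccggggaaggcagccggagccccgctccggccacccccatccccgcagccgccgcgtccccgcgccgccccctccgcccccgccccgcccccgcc
Cacna2d2: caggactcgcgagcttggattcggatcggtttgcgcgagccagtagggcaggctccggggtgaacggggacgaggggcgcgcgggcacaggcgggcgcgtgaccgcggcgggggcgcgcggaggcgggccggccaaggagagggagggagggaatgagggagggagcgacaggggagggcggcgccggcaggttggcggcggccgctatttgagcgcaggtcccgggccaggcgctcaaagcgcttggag
Cacna2d3: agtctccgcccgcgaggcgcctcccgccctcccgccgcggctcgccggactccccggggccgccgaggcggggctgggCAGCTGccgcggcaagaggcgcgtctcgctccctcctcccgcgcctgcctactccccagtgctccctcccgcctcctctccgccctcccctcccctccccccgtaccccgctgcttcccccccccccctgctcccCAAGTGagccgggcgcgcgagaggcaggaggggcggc

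The table of starts held 9 of the 10 members, with 16 starts among them. The 2 Cacna1c windows shown differed in base composition, with 51.6% G or C at the distal start and 82.8% at the proximal start. The median over all 32851 windows was 52.4%. The Cacna1c window not shown held 50.4% G or C and 1 E-box. The α2δ windows were GC-rich throughout, with 82.4% for Cacna2d1, 74.4% for Cacna2d2 and 80.0% for Cacna2d3. An E-box occurred once in each Cacna1c window shown, at 2 places in the Cacna2d3 window, and not in those of Cacna2d1 and Cacna2d2, whereas 66.2% of all windows held one. None of the 16 windows held the letters GATAA (22.6% of all windows), AGGTGT (11.8%), a MEF2 site (2.92%) or a CArG box (1.47%), searched on both strands. These are descriptions of letters in a short window and not of binding.

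The libraries held 55.0 to 97.1 M counts assigned to genes. Cardiomyocyte genes were abundant in both chambers, with Tnnt2 at 4510 to 7540 TPM in ventricle and 4801 to 7829 TPM in atria. Chamber markers separated the tissues but were not absent from the other one: the 5 atrial markers summed to 92.2 to 1007 TPM in ventricular libraries and 40261 to 61759 TPM in atrial ones. The 8 neuron markers summed to 4.58 to 7.59 TPM in ventricle and 3.74 to 9.95 TPM in atria, with Stmn2 at 3.85 to 5.77 and 1.73 to 3.44 TPM, Dbh at 0.14 to 1.6 and 0.9 to 2.9 TPM and Snap25 at 0 to 0.02 and 0 to 1.12 TPM. The ventricular sums exceed the ventricular levels of Cacnb3, Cacnb4, Cacna2d2, Cacna2d3 and Cacng6, and the part of neurons in those levels was not tested. The 5 skeletal muscle markers summed to 0.52 to 1.59 TPM in ventricle and 0.65 to 1.7 TPM in atria, mostly from Mylpf in ventricle (0.47 to 1.56 TPM), with Myh4 at 0 to 0.02 TPM. Sex, read from Xist and Ddx3y, and the number series in the library names were shared in part with the replicate number, since replicate 3 was female and of the later series in every cohort but MBNL1+MBNL2, whose libraries were all male and all of the later series. The ventricular MBNL1 replicate 1 library listed 16885 genes above 0, beside 20578 to 24041 in the others. In bulk tissue, fewer cells of a type and less RNA per cell cannot be told apart.

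Levels were compared between genes in transcripts-per-million (TPM), which corrects for transcript length. In the ventricle of –dox mice the mean levels ran from Cacna1c (69.6 TPM) and Rrad (68.4 TPM) through Cacna2d1 (45.0 TPM), Cacnb2 (27.7 TPM), Cacnb1 (6.53 TPM), Cacnb3 (1.78 TPM), Cacna2d2 (1.45 TPM), Cacna2d3 (0.427 TPM) and Cacnb4 (0.307 TPM) to Cacng6 (0.05 TPM). Neighbours in this order overlapped between libraries for Cacna1c and Rrad, Rrad and Cacna2d1, Cacnb3 and Cacna2d2, and Cacna2d3 and Cacnb4, and did not overlap otherwise. In the atria of –dox mice Rrad was highest (120.1 TPM), followed by Cacna2d2 (47.9 TPM), Cacna1c (36.2 TPM), Cacna2d1 (34.7 TPM) and Cacnb2 (33.4 TPM), of which each overlapped with the next except Rrad with Cacna2d2. Cacnb1 (9.30 TPM) and Cacna2d3 (8.48 TPM) overlapped further down, above Cacnb3 (3.39 TPM) and Cacnb4 (0.473 TPM), and Cacng6 was listed at 0.

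**Figure D1:**
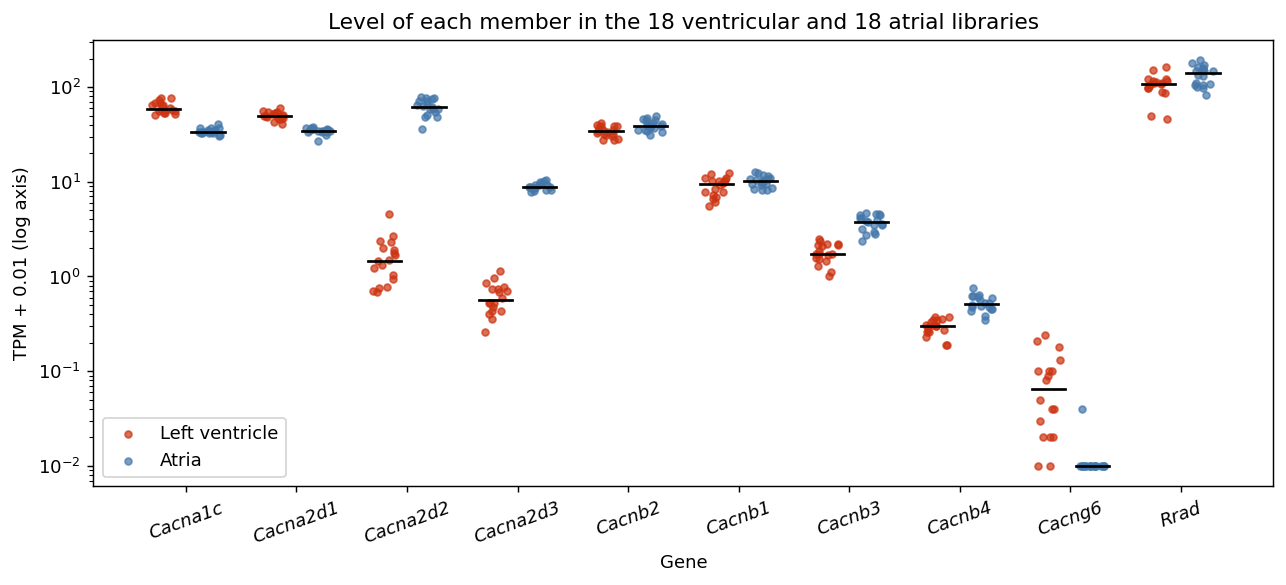
Each point is 1 library, with the level of each gene as TPM + 0.01 on a log axis, for 18 ventricular and 18 atrial libraries of all cohorts; black lines are medians. Cacna2d2 and Cacna2d3 lie far higher in atria, with medians of 61.95 and 8.87 TPM beside 1.47 and 0.55 TPM in ventricle, and Cacna1c lies lower in atria.

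The study compared the +dox cohort with –dox mice to ask what the repeat RNA changes, and with +/–dox mice to ask what returns when it is shut off. Of the 9 members tested in ventricle, Cacna1c alone was called in both comparisons and was higher without the repeat RNA. A call here required a Benjamini-Hochberg adjusted p below 0.05 in the edgeR quasi-likelihood test and a change of at least 1.5-fold, and 7.6% of all genes met it between –dox and +dox ventricle and 6.6% between +/–dox and +dox ventricle. Genes called higher made up 3.47% and 3.09% of all genes. A count of 1 of 9 is therefore near what the rest of the transcriptome shows, and the result concerns the single gene. The groups did not overlap for 2 of the 9 members in each comparison, beside 33.6% and 38% of all genes tested. An unadjusted p below 0.05 was found for 2 members in each, and DESeq2 called 1 in each. The median log2 fold change of the 9 members between –dox and +dox ventricle was -0.21, beside 0.01 over all genes.

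Cacna1c lies at chr6:118587240-119196418 on the minus strand. Its values in CPM (counts-per-million, scaled by library size and composition) in ventricle were 306, 311 and 290 in the +dox libraries. They were 456, 451 and 495 in the –dox libraries and 448, 511 and 458 in the +/–dox libraries. All 6 libraries without current repeat induction thus lay above all 3 +dox libraries. The mean was 302 ± 10.6 CPM (SD, n = 3) with dox and 467 ± 24.3 CPM (SD, n = 3) without it, a 1.55-fold difference with a log2 fold change of 0.63 (SE 0.07; edgeR adjusted p = 2.24e-07). Against +dox, the +/–dox ventricle stood 1.56-fold higher, with a log2 fold change of 0.65 (SE 0.07; edgeR adjusted p = 1.77e-07). The –dox and +/–dox ventricles differed by -0.02 on the log2 scale, with a 95% interval of -0.17 to 0.13. These comparisons share the +dox or +/–dox libraries and are not independent of each other.

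The size of this difference depended on the unit. In TPM the +dox ventricles held 52.9, 51.5 and 51.0 and the –dox ventricles 65.0, 67.2 and 76.7, again without overlap. On log2(TPM + 0.5) the differences were 0.42 for –dox and 0.47 for +/–dox (limma adjusted p = 0.000221 and 7.35e-05). Both were below the 1.5-fold line, so that the direction held and the call did not. The median of all genes in these fits was -0.015 and -0.002, and relative to it Cacna1c stood at 0.43 and 0.47. The 6 cardiomyocyte markers summed to 19319 to 19921 TPM in the +dox ventricles, 20227 to 23445 TPM in –dox and 24113 to 25581 TPM in +/–dox, without overlap with +dox. The 4 endothelial markers summed to 134 to 144 TPM in +dox, 168 to 216 TPM in –dox and 176 to 194 TPM in +/–dox, and the 8 neuron markers to 4.58 to 4.89, 5.11 to 7.57 and 5.39 to 7.59 TPM, both also without overlap with +dox. Called higher were 1 of 4 endothelial and 1 of 5 tested neuron markers in –dox, and 1 of 5 tested neuron, 1 of 5 smooth muscle and 1 of 6 cardiomyocyte markers in +/–dox. The 4 fibroblast markers summed to 587 to 638 TPM in +dox and 645 to 715 TPM in +/–dox, without overlap. In –dox they summed to 512 to 628 TPM, which overlapped with +dox. The part of these cells in the Cacna1c result was not tested.

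In mice that stayed on dox and received vector, ventricular Cacna1c took values between those of the +dox and +/–dox cohorts. The MBNL1 libraries held 387, 357 and 369 CPM, the MBNL2 libraries 324, 340 and 335 CPM, and the MBNL1+MBNL2 libraries 413, 354 and 329 CPM. All 9 lay above the highest +dox library and below the lowest +/–dox library. Against +dox the log2 fold changes were 0.30 with MBNL1 (edgeR adjusted p = 0.0103) and 0.27 with both vectors (edgeR adjusted p = 0.0165), each below 1.5-fold, and 0.14 with MBNL2 (edgeR adjusted p = 0.261). No member was called in these 3 comparisons, by edgeR or by DESeq2, and 2.66%, 2.65% and 1.52% of all genes were. An unadjusted p below 0.05 was found for 3 members with MBNL1, 1 with both and 3 with MBNL2. Against +/–dox the log2 fold changes of the same cohorts were -0.35 with MBNL1 (adjusted p = 0.00856), -0.37 with both (adjusted p = 0.00602) and -0.51 with MBNL2 (adjusted p = 6.03e-05, all edgeR), also short of 1.5-fold, and 0.868%, 0.53% and 1.57% of all genes were called. MBNL1 and MBNL2 ventricles differed by 0.16, with an interval of 0.01 to 0.31 and an edgeR adjusted p of 0.453. In TPM the mean Cacna1c levels were 58.3 with MBNL1, 57.1 with MBNL2 and 59.7 with both. They stood beside 51.8 in +dox and 72.0 in +/–dox, and all 9 libraries again lay between those cohorts. The MBNL1 (55.6 to 62.8 TPM) and MBNL2 (56.7 to 57.7 TPM) ventricles overlapped in that unit and did not in CPM. The endothelial sum (145 to 190 TPM) and the neuron sum (5.39 to 7.29 TPM) of all 9 vector ventricles lay above every +dox ventricle. So did cardiomyocyte sums with MBNL1 (20681 to 21374 TPM). Fibroblast sums did with MBNL2 (693 to 970 TPM) and with both (697 to 899 TPM). Ventricular marker sums lay below every +dox ventricle with MBNL2 (22123 to 24224 TPM) and with both (21686 to 24351 TPM). Their part in the Cacna1c values was not tested.

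**Figure D2:**
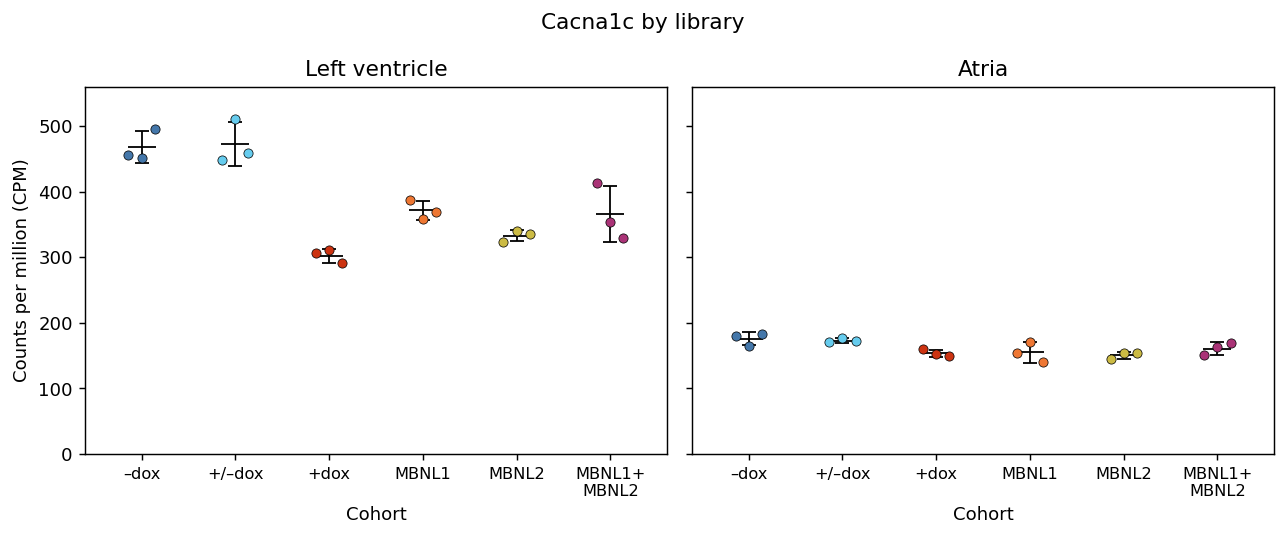
Cacna1c in counts-per-million by cohort, with 1 point per library, the mean as a horizontal line and the SD as bars (n = 3), in left ventricle and atria on a common axis from 0. The 3 +dox ventricles lie at 290 to 311 CPM, the 6 –dox and +/–dox ventricles at 448 to 511 CPM and the 9 vector-treated ventricles at 324 to 413 CPM, whereas all 18 atrial libraries lie at 139 to 182 CPM.

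Cacna1c in atria was lower and moved less. The +dox atria held 159, 152 and 149 CPM, the –dox atria 180, 164 and 182 CPM and the +/–dox atria 170, 177 and 172 CPM, and neither cohort overlapped with +dox in CPM. In TPM both did, with 32.8, 32.4 and 34.0 in +dox, 35.0, 33.5 and 40.3 in –dox and 34.2, 33.7 and 37.3 in +/–dox. The log2 fold changes of 0.19 and 0.17 (edgeR adjusted p = 0.0679 and 0.131) did not pass the test. In the vector cohorts atrial Cacna1c ranged from 139 to 171 CPM and overlapped with +dox, with log2 fold changes of -0.03 to 0.06. The difference between the chambers was itself tested: the –dox effect in atria minus that in ventricle was -0.43 (95% interval -0.65 to -0.22, edgeR adjusted p = 0.0297) and the same difference for +/–dox was -0.47 (interval -0.69 to -0.26, adjusted p = 0.0249). Both differences were below 1.5-fold and not called, where 0.764% and 0.489% of all genes were. On log2(TPM + 0.5) they were -0.29 and -0.39, with limma adjusted p = 0.249 and 0.077. With 1 library left out in turn, the edgeR adjusted p ranged from 0.0328 to 0.103 for –dox and from 0.0258 to 0.0834 for +/–dox. With the mouse as a block, a fit added after seeing the data, they were -0.44 (SE 0.10, edgeR adjusted p = 0.0209) and -0.47 (SE 0.10, adjusted p = 0.0153), where 1.55% and 1.2% of all genes were called, and with 1 mouse left out in turn the adjusted p ranged from 0.046 to 0.0805 and from 0.0348 to 0.0632. Cacnb3 was the other member with an unadjusted p below 0.05 in both differences, and DESeq2 called 0 members.

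The 3 tested genes whose level followed Cacna1c most closely over the 36 libraries, once the mean of each tissue was removed, were Acot7 (Pearson r 0.91), Fbxo31 (0.90) and Pygb (0.88). Acot7 encodes an acyl-CoA thioesterase, Fbxo31 an F-box protein and Pygb a glycogen phosphorylase. All genes of a library share its preparation, cohort and depth, and the values are given as a description.

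**Figure D3:**
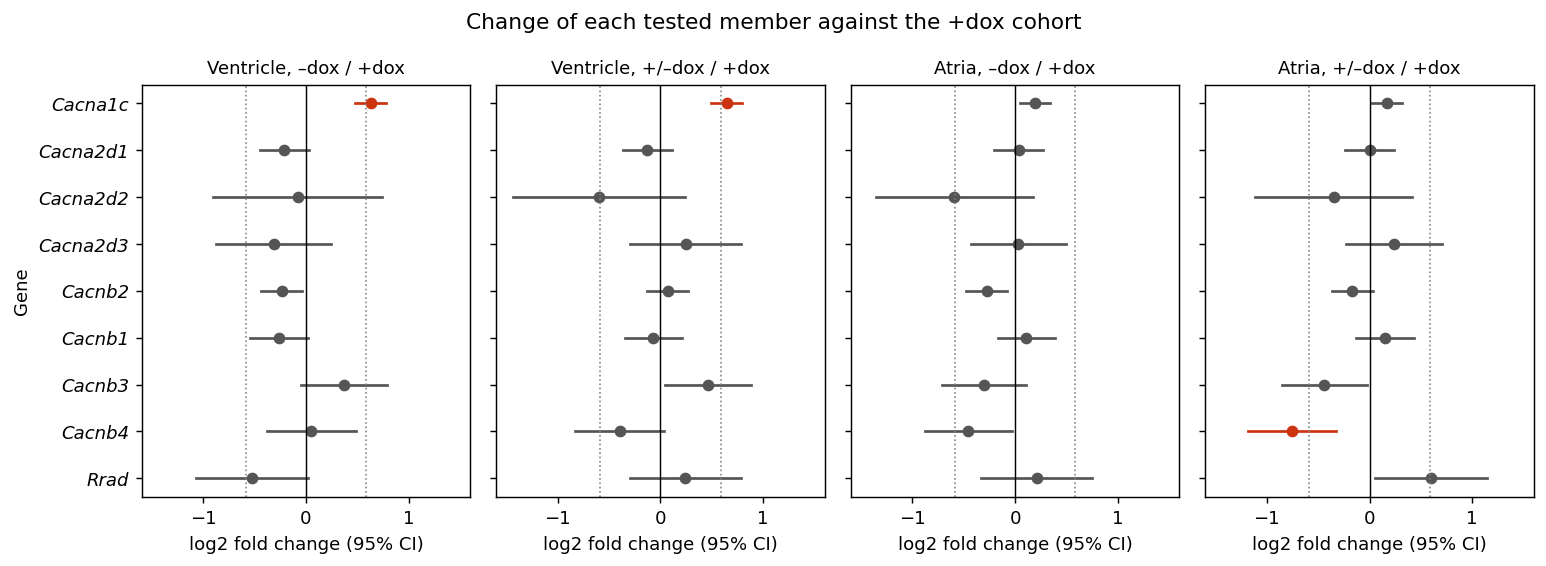
Log2 fold change (point) and 95% interval (line) of the 9 tested members against +dox in 4 comparisons, with dotted lines at 1.5-fold and called members in red. Cacna1c in ventricle is called in both, Cacnb4 is called lower in +/–dox atria, and the widest intervals belong to Cacna2d2.

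Among the β subunits, no member was called in the ventricle against +dox. Cacnb2 (chr2:14603088-14987908, plus strand), the main β subunit gene of heart muscle, made up 68.7 to 84.9% of the summed β TPM in ventricle and 69.6 to 77.3% in atria. In ventricle its +dox libraries held 76.4, 80.5 and 89.4 CPM and its –dox libraries 71.6, 72.0 and 65.5 CPM. The –dox values were lower without overlap, with a log2 fold change of -0.24 (SE 0.10, edgeR adjusted p = 0.0837). In atria the –dox libraries (57.9, 62.3 and 60.1 CPM) were also all below the +dox libraries (76.8, 76.8 and 64.9 CPM), with a log2 fold change of -0.28 (SE 0.10, edgeR adjusted p = 0.0496), a 1.21-fold difference below the fold required. In +/–dox mice Cacnb2 differed from +dox by 0.07 in ventricle and by -0.17 in atria, and neither passed the test.

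Cacnb1 (chr11:98001508-98023034, minus strand), a β subunit gene best known from skeletal muscle, was the second β gene by level. It held 16.3, 15.2 and 8.97 CPM in +dox ventricles, of which replicate 3 stood apart, and 11.1, 11.5 and 11.2 CPM in –dox ventricles. The vector cohorts were higher, with 19.7, 18.4 and 15.4 CPM with MBNL1, 18.9, 19.3 and 15.8 CPM with MBNL2 and 16.7, 16.7 and 15.5 CPM with both. They overlapped with +dox and did not overlap with +/–dox (12.5, 13.6 and 12.6 CPM). Against +dox the log2 fold changes were 0.40, 0.41 and 0.27 (edgeR adjusted p = 0.0601, 0.0603 and 0.247). Without +dox replicate 3 they were 0.18, 0.19 and 0.05 (adjusted p = 0.371, 0.398 and 0.873), so that most of these differences came from that library, and –dox against +dox moved from -0.26 (adjusted p = 0.193) to -0.48 (adjusted p = 0.00272). Against +/–dox they were 0.47, 0.48 and 0.34 (edgeR adjusted p = 0.0582, 0.0352 and 0.235), all below 1.5-fold. In atria the MBNL1 libraries (14.7, 12.8 and 12.6 CPM) lay above the +dox libraries (12.0, 9.91 and 9.17 CPM), with a log2 fold change of 0.37 and an edgeR adjusted p of 0.39.

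Cacnb3 (chr15:98630840-98644529, plus strand), a β subunit gene with wide expression, was a minor part of the β pool, with 2.10 to 5.85% in ventricle and 4.92 to 8.85% in atria. In ventricle the +/–dox libraries (3.54, 3.55 and 4.64 CPM) and the MBNL2 libraries (4.44, 4.13 and 3.87 CPM) lay above the +dox libraries (3.13, 3.24 and 2.13 CPM). The log2 fold changes of 0.46 and 0.54 did not pass the test (edgeR adjusted p = 0.109 and 0.0986). In atria the +/–dox value went the other way, at -0.44 (adjusted p = 0.163), and the difference between chambers in the +/–dox effect was -0.90 (SE 0.29, edgeR adjusted p = 0.148).

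Cacnb4 (chr2:52428320-52676831, minus strand), a β subunit gene best known from brain, was the lowest β gene, at 0.18 to 0.36 TPM in ventricle and 0.34 to 0.74 TPM in atria, from 71.6 to 350 counts per library. It was the 1 member called in atria against +dox, where 3.99% of all genes were called between +/–dox and +dox and 1.98% were called lower. The +dox atria held 3.77, 2.98 and 2.68 CPM and the +/–dox atria 1.79, 1.83 and 1.98 CPM, so that all of the latter were lower, with a log2 fold change of -0.75 (SE 0.21, edgeR adjusted p = 0.0151). The call was lost when replicate 1 of +dox (adjusted p = 0.122) or of +/–dox (adjusted p = 0.0599) was left out, and on log2(TPM + 0.5), where the value was -0.40 (limma adjusted p = 0.00302), short of 1.5-fold. Several marker sums separated fully in the same comparison, all higher in +/–dox: the cardiomyocyte sum was 21631 to 23285 TPM in +dox and 25702 to 27320 TPM in +/–dox, the atrial sum 40261 to 43329 and 55807 to 60714 TPM, the ventricular sum 328 to 392 and 411 to 683 TPM, the endothelial sum 166 to 180.0 and 183 to 218 TPM and the neuron sum 3.79 to 4.34 and 5.26 to 6.19 TPM. Their part in the Cacnb4 result was not tested. The –dox atria (2.34, 2.55 and 2.00 CPM) were also all below +dox (log2 fold change -0.45, edgeR adjusted p = 0.139), and no member was called there by edgeR or DESeq2, where 5.23% of all genes were. Cacna1c, Cacnb2 and Cacnb4 had an unadjusted p below 0.05 in that comparison, and they were the 3 members whose groups did not overlap, beside 36.6% of all genes. In ventricle Cacnb4 overlapped between +dox and every other cohort.

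**Figure D4:**
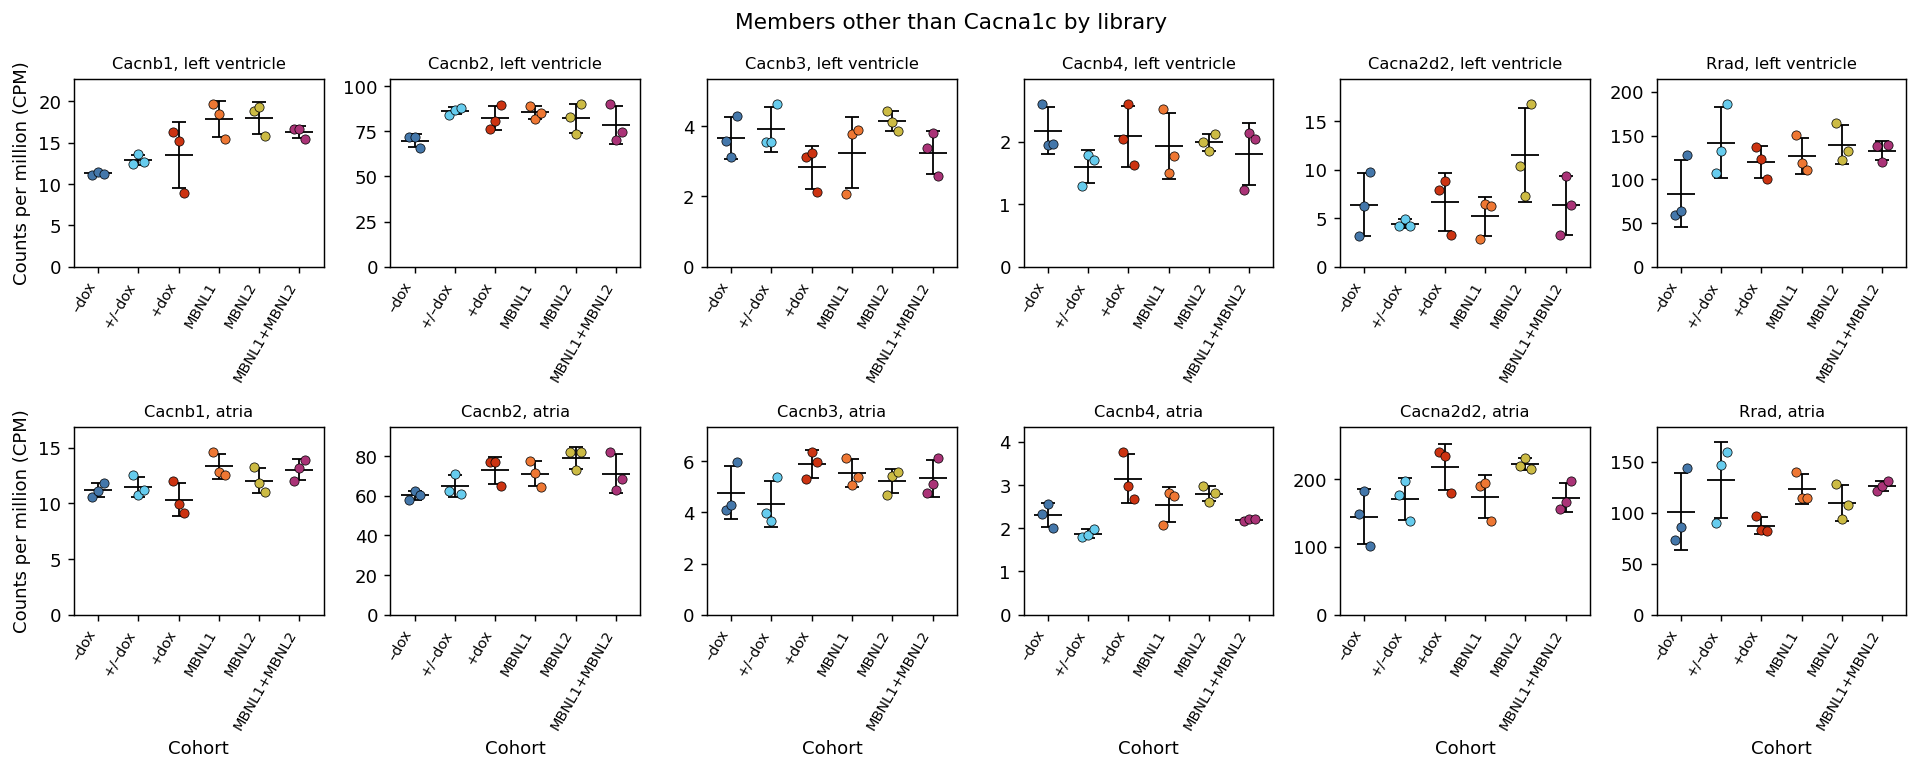
Counts-per-million of Cacnb1, Cacnb2, Cacnb3, Cacnb4, Cacna2d2 and Rrad by cohort, with 1 point per library, the mean as a line and the SD as bars (n = 3), ventricle above and atria below, each panel on its own axis from 0. Ventricular Cacnb1 lies at 15.4 to 19.7 CPM in the vector cohorts and 11.1 to 13.6 CPM in –dox and +/–dox, and Rrad of –dox ventricles spreads from 59.3 to 128 CPM.

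The largest differences between chambers among the 9 tested members were those of 2 α2δ genes. Between atria and ventricle of –dox mice 4 of the 9 members were called, beside 24.9% of all genes. Cacna2d2 and Cacna2d3 were higher in atria, as were 13.7% of all genes, and Cacna1c and Cacna2d1 were lower, as were 11.2%. The same 4 were called with the mouse as a block, beside 25% of all genes. Markers of other cells moved in this comparison too. Of the fibroblast markers 4 of 4 were called higher in atria (summed 989 to 1428 TPM over all atrial libraries and 512 to 970 TPM in ventricle), of the endothelial markers 2 of 4 lower, of the smooth muscle markers 1 of 5 higher and 1 lower, of the neuron markers 1 of 5 tested higher and 1 lower, of the skeletal muscle markers 1 of 3 tested higher, and of the cardiomyocyte markers 2 of 6 lower, while 0 of 4 leukocyte markers were called. Their part in the chamber differences was not tested. Cacna2d2 held 3.18, 6.27 and 9.71 CPM in ventricle and 149, 183 and 102 CPM in atria, a 22.7-fold difference (log2 fold change 4.51, SE 0.44, edgeR adjusted p = 4.07e-09). Cacna2d3 held 1.14, 1.68 and 1.25 CPM in ventricle and 20.8, 19.2 and 15.8 CPM in atria, a 13.6-fold difference (log2 fold change 3.77, SE 0.27, edgeR adjusted p = 2.75e-12). Cacna2d2 spans chr9:107399612-107529343 on the plus strand and Cacna2d3 spans chr14:28904943-29721864 on the minus strand. Neither gene overlapped between the chambers in any cohort, as the ranges over all 36 libraries (0.67 to 4.55 TPM against 35.9 to 79.3 TPM for Cacna2d2, 0.25 to 1.14 TPM against 7.74 to 10.5 TPM for Cacna2d3) show.

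Cacna2d1 (chr5:15934691-16374511, plus strand), the main α2δ gene of the ventricle, went the other way. It held 264, 278 and 217 CPM in –dox ventricle and 136, 140 and 125 CPM in –dox atria, which is 1.89-fold lower in atria (log2 fold change -0.92, SE 0.12, edgeR adjusted p = 1.12e-07). Cacna1c was 2.66-fold lower in atria (log2 fold change -1.41, SE 0.07, edgeR adjusted p = 5.51e-16). On log2(TPM + 0.5) the median of all genes was 0.38 higher in atria, and relative to that median Cacna1c stood at -1.31, Cacna2d1 at -0.75, Cacna2d2 at 4.32 and Cacna2d3 at 2.90. Without that adjustment Cacna2d1 was at -0.37 in TPM and not called. The β genes and Rrad were not called between chambers on counts, with log2 fold changes of -0.21 for Cacnb2 (adjusted p = 0.08), -0.01 for Cacnb1, 0.08 for Cacnb4, 0.38 for Cacnb3 and 0.27 for Rrad (adjusted p = 0.446, all edgeR). In TPM, Cacnb3 and Rrad were called higher in atria, at 0.76 and 0.84, or 0.38 and 0.46 relative to the median of all genes.

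The make-up of the α2δ pool differed between chambers in every library. Cacna2d1 made up 90.7 to 98.1% of the summed α2δ TPM in ventricle and 27.5 to 44.3% in atria. Cacna2d2 made up 1.37 to 8.05% and 45.8 to 65.4%, and Cacna2d3 0.498 to 1.93% and 6.78 to 10.8%. The summed α2δ level was 46.9 ± 3.43 TPM in –dox ventricle and 91.0 ± 12.3 TPM in –dox atria (SD, n = 3). The size of this gap depends on the unit, since on log2(TPM + 0.5) the median of all genes was 0.38 higher in atria. In CPM the means in –dox ventricle and atria were 253 and 134 for Cacna2d1, 6.39 and 145 for Cacna2d2 and 1.35 and 18.6 for Cacna2d3. Within atria the share of Cacna2d2 was 52.1 ± 5.98% in –dox, 56.3 ± 1.95% in +/–dox and 62.9 ± 2.50% in +dox (SD, n = 3). Every –dox and +/–dox library lay below every +dox library. The β pool did not show such a split, and Cacnb2 had the largest share in all 36 libraries.

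**Figure D5:**
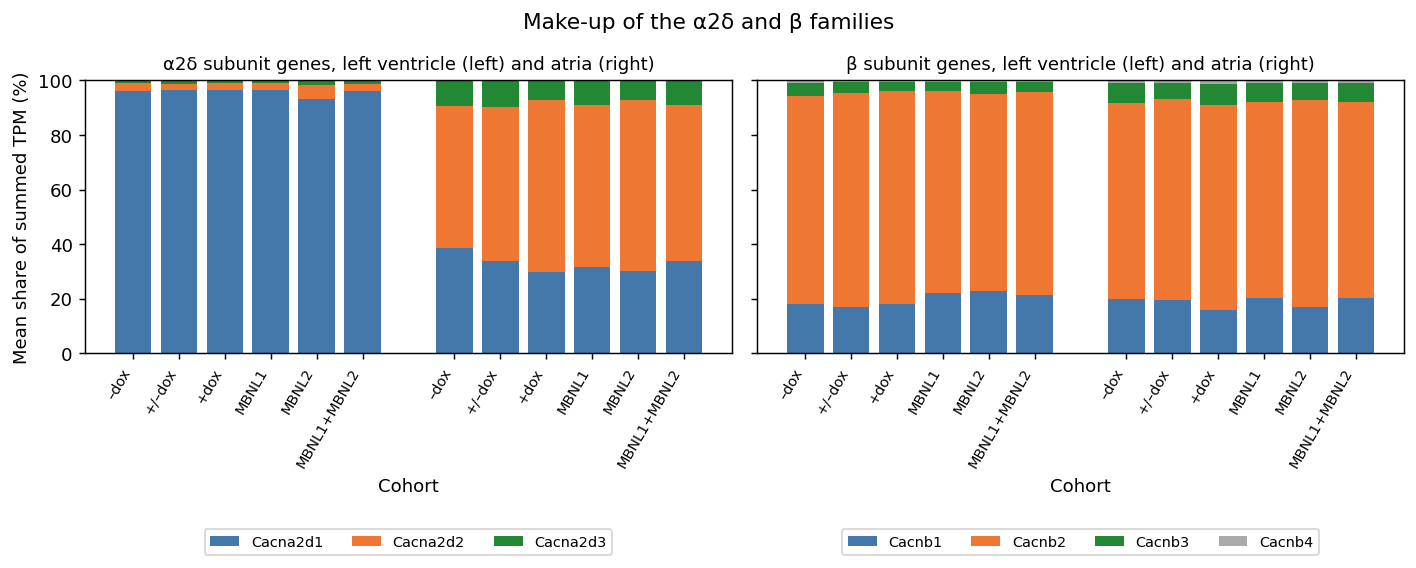
Stacked bars of the mean share (%) of each gene in the summed TPM of its family, α2δ on the left and β on the right, for 6 ventricular and then 6 atrial groups of 3 libraries each. Cacna2d1 fills 93.2 to 96.6% of the ventricular α2δ bars and 29.9 to 38.6% of the atrial ones, whereas Cacnb2 fills most of every β bar.

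Against +dox, no α2δ gene was called in either chamber. Atrial Cacna2d2 held 240, 233 and 179 CPM in +dox and 149, 183 and 102 CPM in –dox, with a log2 fold change of -0.59 (95% interval -1.35 to 0.17, edgeR adjusted p = 0.312). Cacna2d1 in ventricle ranged from 265 to 308 CPM in +dox and 217 to 278 CPM in –dox, with a log2 fold change of -0.21 (adjusted p = 0.213). Atrial Cacna2d1 in –dox differed from +dox by 0.04, with an interval of -0.20 to 0.27.

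The 1 α2δ call among the cohorts was Cacna2d2 in ventricle between MBNL2 and +/–dox, where 1.57% of all genes were called. Its values were 10.3, 7.31 and 16.8 CPM with MBNL2 and 4.21, 4.95 and 4.16 CPM in +/–dox, with a log2 fold change of 1.37 (SE 0.41, edgeR adjusted p = 0.0473). The call was lost when any 1 of the 3 +/–dox libraries or MBNL2 replicate 1 or 3 was left out, with adjusted p between 0.0912 and 0.226. Since Cacna2d2 is high in atria, atrial markers were read in the same libraries: their sum was 880, 270 and 718 TPM with MBNL2 and 657, 343 and 394 TPM in +/–dox. Over the 18 ventricular libraries the lowest Cacna2d2 level, 0.67 TPM in –dox replicate 1, came with the lowest atrial sum, 92.2 TPM. The highest, 4.55 TPM in MBNL2 replicate 3, came with a sum of 718 TPM, whereas the highest sum (1007 TPM, –dox replicate 2) came with 1.31 TPM of Cacna2d2. In MBNL2 and +/–dox ventricles the cardiomyocyte sum was 19396 to 21898 TPM and 24113 to 25581 TPM. The leukocyte sum was 13.4 to 15.2 TPM and 8.63 to 11.1 TPM. Neither overlapped, with 1 of 6 cardiomyocyte markers called lower with MBNL2 and 0 of 4 leukocyte markers called. The part of atrial tissue or of these cells in ventricular Cacna2d2 and Cacna2d3 was not tested.

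Cacng6 (chr7:3424195-3435667, plus strand), a γ subunit gene, was close to absent. In ventricle it had 93 counts in all over 18 libraries, at most 17 in a library, and 2 libraries at 0. In atria it had 1 count in 1 library and 0 in the other 17, and a count of 0 allows up to 3 counts, or 0.0545 CPM in the smallest atrial library, as a limit that covers counting error only. Its highest values, 9, 17 and 10 counts, were in MBNL2 ventricles, beside 4, 1 and 2 in +dox and 8, 8 and 0 in –dox. It did not pass the filter on low counts and has no value in the main test. With DESeq2 and with no filter it was called lower in atria than in ventricle of –dox mice.

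Rrad (chr8:104628070-104631327, minus strand) was among the most abundant members, with a wide spread in –dox and +/–dox mice. In ventricle it held 137, 123 and 101 CPM in +dox, 59.3, 63.4 and 128 CPM in –dox and 108, 132 and 187 CPM in +/–dox. The –dox and +dox groups overlapped through –dox replicate 3. The log2 fold change of –dox against +dox was -0.53 (95% interval -1.07 to 0.02, edgeR adjusted p = 0.169), and without –dox replicate 3 it was -0.97 (adjusted p = 0.0104) and would have been called. That library was female and of the later series. With sex as a term the value was -0.57 (adjusted p = 0.109).

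In atria, replicate 3 was again the highest Rrad library of the –dox (72.7, 86.3 and 143 CPM) and +/–dox (90.0, 147 and 160 CPM) cohorts, and not of +dox (96.5, 83.4 and 81.5 CPM). The MBNL1 atria (140, 115 and 114 CPM) and the MBNL1+MBNL2 atria (122, 126 and 131 CPM) all lay above the +dox atria. Their log2 fold changes of 0.49 and 0.54 did not pass the test (edgeR adjusted p = 0.694 and 0.508), in comparisons where 0.13% and 0.26% of all genes were called. MBNL2 atria (128, 93.4 and 107 CPM) overlapped with +dox, with a log2 fold change of 0.33.

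Within a mouse, atrial and ventricular Rrad could be set side by side. The log2 ratio of atria to ventricle was 0.29, 0.44 and 0.17 in the –dox mice, -0.51, -0.56 and -0.30 in the +dox mice and -0.26, 0.15 and -0.22 in the +/–dox mice. In CPM, Rrad was thus higher in atria in 3 of 3 –dox mice and lower in atria in 3 of 3 +dox mice. In TPM it was higher in atria in 3 of 3 –dox mice and in 2 of 3 +dox mice, with 113, 97.0 and 88.0 TPM in the ventricles and 110.0, 99.9 and 104 TPM in the atria of the +dox mice, so that the sign in +dox mice depended on the unit. On log2(TPM + 0.5) without the block, the difference between the chambers in the –dox effect was 0.76 (limma adjusted p = 0.497). The –dox effect in atria minus that in ventricle was 0.74 without the block (95% interval -0.03 to 1.51, edgeR adjusted p = 0.477) and 0.76 with the mouse as a block (SE 0.10, edgeR adjusted p = 0.00025), which is called and remained so with each of the 6 mice left out (0.69 to 0.83, adjusted p 0.000293 to 0.00373). The same difference for +/–dox was 0.35 with the block (SE 0.10, adjusted p = 0.0708). Atria against ventricle in –dox mice stood at 0.30 with the block (SE 0.07, adjusted p = 0.00173), below 1.5-fold.

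Other genes of the calcium channel family and its partners were counted from lists chosen with results of these data known. Of 9 other pore-forming genes, 7 were tested, and 2 fell in –dox against +dox ventricle and 3 in –dox against +dox atria, with none higher, where 4.13% and 2.4% of all genes were called lower. Cacna1d, the pore of an L-type channel that opens at lower voltages and serves pacemaking, was lower in –dox, with log2 fold changes of -1.22 in ventricle (edgeR adjusted p = 2.81e-07) and -1.24 in atria (adjusted p = 6.19e-08). It was far more abundant in atria, with 9.57 ± 0.81 TPM in +dox and 3.88 ± 0.21 TPM in –dox atria and 1.15 ± 0.26 and 0.487 ± 0.099 TPM in the ventricles (SD, n = 3). Thus Cacna1c was higher and Cacna1d lower in –dox ventricles than in +dox ones. Cacna1g, a T-type pore gene, was lower with log2 fold changes of -1.19 in ventricle (adjusted p = 0.00444, with overlapping groups) and -1.36 in atria (adjusted p = 0.00187), and Cacna1h, another T-type gene, with -1.32 in atria (adjusted p = 0.0166, all edgeR).

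Of the 8 other auxiliary genes 3 were tested, and 1 of them, Cacng4, was called lower in –dox atria (log2 fold change -2.66, edgeR adjusted p = 0.0483), from only 0.10 to 0.18 TPM in +dox to 0.01 to 0.03 TPM. Of the 3 other RGK genes 2 were tested and neither was called in –dox against +dox. Rem1, named after its values were seen, was called higher in +/–dox, MBNL2 and MBNL1+MBNL2 ventricles than in +dox, by 0.65, 0.63 and 0.62 (edgeR adjusted p = 0.0138, 0.04 and 0.0422). Of 21 genes that work beside the channel, all were tested, and 2 were called in –dox against +dox ventricle and 3 in atria, beside 7.6% and 5.23% of all genes. Ryr2, the calcium release channel that the L-type current opens, rose in –dox against +dox by 0.96 in ventricle (adjusted p = 2.24e-11) and 0.69 in atria (adjusted p = 2.05e-08). Stac2, an adaptor of the channel, rose in ventricle by 1.46 (adjusted p = 0.00884) and its relative Stac in atria by 1.80 (adjusted p = 0.0255), both at low levels (0.21 to 0.61 TPM and 0.06 to 0.18 TPM in –dox). Pln, the phospholamban gene that restrains calcium reuptake, rose in atria by 0.93 (adjusted p = 3.2e-07, all edgeR). The other 19 of these genes in ventricle and 18 in atria were not called, and the median over the list was 0.10 in ventricle and 0.09 in atria, beside 0.01 and 0.03 over all genes.

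Between –dox and +/–dox no member was called in ventricle or atria by edgeR or DESeq2, where 0.0312% and 0.0104% of all genes were. Cacnb2, Cacnb4 and Rrad had an unadjusted p below 0.05 in ventricle, and no member did in atria. No member was called between MBNL1 and MBNL2 (0.0156% of all genes in ventricle and 0.0052% in atria), with an unadjusted p below 0.05 for 3 members in ventricle and 0 in atria. In atria none was called against +dox with MBNL1, MBNL2 or both, where 0.13%, 0.0052% and 0.26% of all genes were, and 1, 0 and 2 members had an unadjusted p below 0.05. Against +/–dox atria none was called either by edgeR, where 1.21%, 3.24% and 1.71% of all genes were, and 2, 3 and 0 members had an unadjusted p below 0.05. DESeq2 called 1 of these, Cacnb4 in MBNL2 against +/–dox atria (log2 fold change 0.59, adjusted p = 0.0296).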

How the data were processed

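RNA from left ventricle and atria passed an integrity threshold and was made into stranded mRNA libraries sequenced as read pairs. Per the labels and the study's methods, the authors aligned reads with STAR 2.7.10b to mm10 and deposited RSEM 1.3.1 expected counts per gene, not normalised, and TPM values. RSEM's handling of strand is not given in the sources used here, and Cacna1c, Cacnb1, Cacnb2, Cacnb4, Cacna2d1, Cacna2d2, Cacna2d3 and Rrad overlap other annotated genes, mostly unnamed models, so their counts could include reads of these. Libraries held 55.0 to 97.1 M counts, and the lowest counts of a tested member were those of Cacna2d3 in ventricle, 54 to 225 in each.

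Expected counts were rounded and fitted with edgeR 4.0.16 in R 4.3.3 (TMM, filterByExpr, robust quasi-likelihood F test, 1 mean for each of 12 groups, 19231 genes, 23 comparisons), and p-values were adjusted over all genes of a comparison (Benjamini-Hochberg). A gene was called at an adjusted p below 0.05 and at least 1.5-fold, the cutoffs of the study, whose own test was DESeq2. SE is the log2 fold change over the root of F, and intervals are 95%. The test was checked on simulated counts. Alternatives were DESeq2 1.42.0, RLE scaling, no filter, no fold cutoff, 1 tissue alone, terms for library series, sex or replicate number, limma 3.58.1 on log2(TPM + 0.5) and log2(TPM + 0.1), and leaving out each library. The study lists the same mice for both chambers, in an order whose sexes match the libraries, so same-numbered libraries of a cohort were taken as 1 mouse, and comparisons between chambers were also fitted with the mouse as a block (18 mice, 12 residual degrees of freedom), an alternative added after seeing the data. Their deviations from the group means correlated at 0.0407 to 0.257. Across cohorts the numbers name different mice, and every such comparison had at least 1 correlation not above 0.1.

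All 10 members were to be named, companion genes where called between –dox and +dox, and the 3 genes most like Cacna1c. The members and lists were chosen with earlier results of these data known. Upstream sequences are those of RefSeq on GRCm38.p6 (Python 3 script). The fit of 12 means takes the libraries of a mouse as independent.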

Additional observations from a re-analysis of the deposited data

Results flagged for a closer look

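The change of Cacna1c against +dox had an adjusted p below 0.05 in a test of the difference between the chambers itself, but neither difference reached 1.5-fold or was called. In the –dox against +dox comparison the atrial log2 fold change minus the ventricular one was -0.43 (edgeR adjusted p = 0.0297), with 0.19 in atria and 0.63 in ventricle. In the +/–dox against +dox comparison it was -0.47 (edgeR adjusted p = 0.0249), with 0.17 in atria and 0.65 in ventricle. In CPM all 3 –dox and all 3 +/–dox libraries lay above the +dox libraries in both chambers, whereas in TPM the atrial groups overlapped. The 2 differences share the +dox libraries. Over the alternatives the adjusted p ranged from 0.00308 to 0.278 for the first and from 0.00182 to 0.0904 for the second, with the lowest from DESeq2 and the highest from limma on log2(TPM + 0.1). The value was negative under each of them, from -0.46 to -0.29 and from -0.51 to -0.39. With the mouse as a block they were -0.44 and -0.47 (edgeR adjusted p = 0.0209 and 0.0153), and with 1 mouse left out in turn the adjusted p rose to as much as 0.0805 and 0.0632.

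The –dox effect on Rrad also differed between the chambers when atria and ventricle were compared within mice, by 0.76 (edgeR adjusted p = 0.00025), with a log2 fold change against +dox of 0.21 in atria and -0.53 in ventricle. Without the block the difference was 0.74 (adjusted p = 0.477). The fit within mice was added after seeing the data. In TPM, atrial Rrad exceeded ventricular Rrad in 2 of 3 +dox mice, whereas in CPM it did so in 0 of 3.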

How the results depend on the processing

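Of 3420 values of single members under the alternatives, 3383 kept their side of the threshold and 37 did not (16 lost a call and 21 gained one), and no called value changed sign; 160 values that were called under neither setting changed sign. Of 380 counts of called members, 29 were marked as moved and 351 were not. The 351 were not all equal to the report's counts. They include counts of 5 in place of 4 between chambers, as with DESeq2. On log2(TPM + 0.5), as on log2(TPM + 0.1), 0 members were called in –dox and in +/–dox against +dox ventricle, where Cacna1c fell short of 1.5-fold. On log2(TPM + 0.5), 0 were called in +/–dox against +dox atria. On log2(TPM + 0.1), 1 (Cacnb1) was called in MBNL2 against +dox and 2 (Cacnb1 and Cacna2d2) in MBNL2 against +/–dox ventricle, in fits whose median of all genes was at 0.12 and 0.13, and relative to it Cacnb1 stood at 0.47 in both. Without a fold cutoff, Cacna1c added 1 in MBNL1 and in MBNL1+MBNL2 ventricle against +dox and against +/–dox and in both differences between chambers, Cacnb2 added 1 in –dox against +dox atria, and MBNL2 against +/–dox ventricle had 3 (Cacna1c, Cacnb1 and Cacna2d2). In the latter comparison 0 were called with no filter on low counts and with ventricular libraries alone. In MBNL2 against +/–dox atria, 1 (Cacnb4) was called with DESeq2 and with atrial libraries alone. The cause of these changes was not tested.

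Leaving out each library in turn gave 1 to 2 called members in –dox against +dox ventricle (2 without –dox replicate 3, Cacna1c and Rrad), 0 to 1 in MBNL2 against +/–dox ventricle, 0 to 1 in +/–dox against +dox atria, 0 to 1 for the difference between chambers in the –dox effect (1, Cacnb1, without ventricular +dox replicate 3, adjusted p = 0.0468) and 4 to 5 between chambers. The fifth was Rrad without ventricular –dox replicate 3. Cacna1c stayed called in every such fit of –dox and +/–dox against +dox ventricle. With the replicate number as a block, 1 member was called in –dox and in +/–dox against +dox ventricle, 1 in +/–dox against +dox atria, 1 in MBNL2 against +/–dox ventricle, 4 between chambers and 0 elsewhere, so that this block changed no call. With the mouse as a block, added after seeing the data, 1 member (Rrad) was called for the difference between chambers in the –dox effect, 0 in the +/–dox effect and 4 between chambers, and the calls over all genes rose from 147 to 299 and from 94 to 230 for both differences. Cacng6, at most 17 counts in a library, was removed by the filter on low counts and was called between chambers with DESeq2 and with no filter.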
